A study of Mus musculus with 4 samples.

Results

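The regions described here are stretches of the mouse genome that were poor in 5-hydroxymethylcytosine (5hmC) in embryonic stem cells (ESC). Chromosomes 1 to 19 of genome build mm9 were divided into 1 Mb windows from position 0, and 2376 windows had at least 500 reads in each input library. Of these, 496 windows (20.9%) had fewer than 0.50 ESC 5hmC reads per ESC input read. They are called ESC-poor windows, and the remaining 1880 are called the other windows. The ESC level chose the windows, so it is given as a description and supports nothing. The neural progenitor cell (NPC) libraries took no part in the choice beyond the minimum of input reads.

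5hmC is made from 5-methylcytosine by the TET dioxygenases, TET1, TET2 and TET3, and can be a step on the way to unmethylated cytosine. In embryonic stem cells it is known chiefly from enhancers, gene bodies and the flanks of CpG-rich promoters. Heterochromatin is known to carry little of it.

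The NPC were rosette-like Sox1-GFP-positive cells taken on day 9 of monolayer N2B27 differentiation. They came from the ESC themselves, which are line 46C of strain 129/Ola, a reporter line in which GFP marks expression of the neural gene Sox1. The ESC were kept in medium containing serum and leukemia inhibitory factor. Neither group had siRNA or shRNA treatment. DNA of the cell types was tagged with separate barcodes, pooled at about 4 µg each, denatured and precipitated together with 1 5hmC antibody. A 10% portion was removed beforehand as input. Each cell type gave a 5hmC library and an input library, with no replicates, so that no test was possible and every interval below is a 95% interval that covers counting error only. On chromosomes 1 to 19 there were 1709355 distinct reads in the NPC 5hmC library, 6438000 in the NPC input, 7042662 in the ESC 5hmC library and 4944294 in the ESC input. The identity of the cells cannot be checked from DNA alone. The level of a region is its number of distinct 5hmC reads per distinct input read, and levels can be compared between regions and between cell types but have no absolute scale.

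ESC-poor windows were also low in NPC. Summed over the 496 windows, the NPC level was 0.199 (0.198 to 0.200), from 175487 5hmC and 881753 input reads. In the other windows it was 0.276 (0.276 to 0.277), from 1531641 and 5548110 reads. The NPC level in ESC-poor windows was thus 0.721 of that elsewhere (0.717 to 0.725). The ESC level was 0.396 (0.394 to 0.398) in ESC-poor windows and 1.58 (1.58 to 1.58) in the other windows, a difference set by the selection. The sizes of the NPC and ESC differences are therefore not compared.

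The NPC/ESC ratio was 0.503 (0.4995 to 0.506) in ESC-poor windows, against 0.175 (0.175 to 0.175) in the other windows. NPC therefore had about 1.99-fold fewer 5hmC reads per input read than ESC in the ESC-poor windows and 5.72-fold fewer elsewhere. No library measured non-specific capture, so its part in these low levels is not known. A ratio of at least 0.5 was found in 267 of the 496 ESC-poor windows (53.8%), where the share over all measured windows was 11.5%. Nothing is read from this contrast, since a low ESC level raises the ratio by construction. When windows were chosen on plus-strand reads and measured on minus-strand reads, 489 windows were chosen and their NPC/ESC ratio was 0.499 (0.494 to 0.504). Both strands come from the same ESC libraries, so these windows too were chosen as low in ESC. Their ratio was likewise raised by construction.

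The limit of 0.50 cut through a continuous distribution. The ESC-poor windows nearest to it were at chr6:123000001-124000000, at chr8:40000001-41000000 and at chr9:28000001-29000000, each with an ESC level of 0.499 and with NPC levels of 0.239, 0.182 and 0.220. Just outside lay windows on chromosome 6 from 76000001, on chromosome 2 from 149000001 and on chromosome 12 from 28000001, with ESC levels of 0.5, 0.5003 and 0.5003 and NPC levels of 0.181, 0.198 and 0.232. The members and non-members at the limit overlapped in their NPC level. By classes of ESC level, the NPC level was 0.178 (0.174 to 0.183) in the 30 windows below 0.3, 0.196 (0.194 to 0.197) in the 243 windows from 0.3 to 0.4 and 0.205 (0.203 to 0.206) in the 223 windows from 0.4 to 0.5. It was 0.212 (0.210 to 0.214) in the 144 windows from 0.5 to 0.6 and reached 0.334 (0.333 to 0.335) in the 398 windows at 2 or more. The NPC level was higher in each of the 9 classes than in the class before it.

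**Figure D1:**
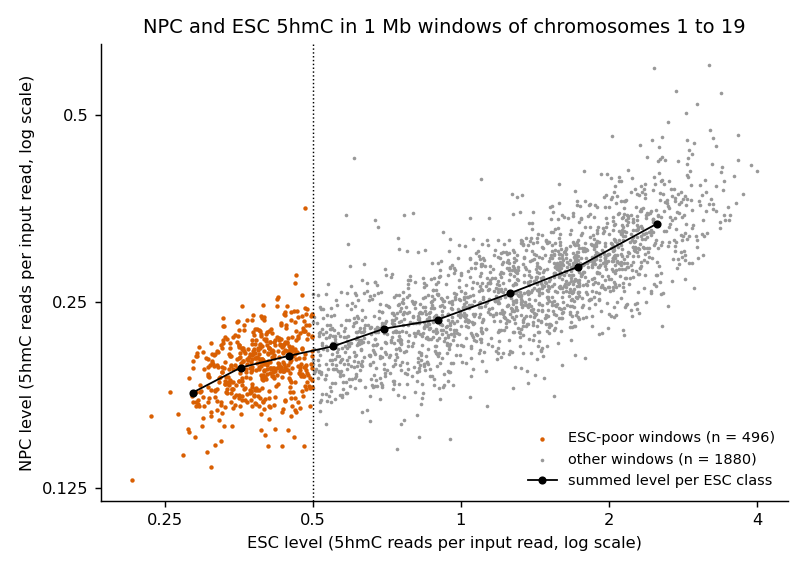
NPC level (vertical axis) against ESC level (horizontal axis) of 1 Mb windows, both in 5hmC reads per input read on log scales; orange points are the 496 ESC-poor windows, grey points the 1880 other windows, and the black line joins the summed levels of 9 classes of ESC level. The dotted line is the limit of 0.50, and the summed NPC level runs from 0.178 in the poorest class to 0.334 in the richest without a jump at the limit.

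Low NPC levels were the rule among the ESC-poor windows. Their NPC level ran from 0.129 to 0.354 with a median of 0.197, against 0.145 to 0.603 with a median of 0.259 in the other windows. It lay below the level of all measured windows, 0.266, in 493 of 496 ESC-poor windows (99.4%), against 63.8% of all measured windows. Of the 496 windows with the lowest NPC level, 302 (60.9%) were ESC-poor, which is the same share of either list. The other ESC-poor windows lay higher in the NPC order.

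Among themselves, the ESC-poor windows spread little in NPC. The 5th to 95th percentile of their NPC level spanned 1.45-fold, against 1.93-fold in the other windows. The NPC interval of 349 of the 496 windows included the summed level of 0.199, while 65 windows lay above it and 82 below. NPC levels from plus-strand and minus-strand reads of the same windows correlated with r = 0.518 (Pearson, log2 values) across the 496 windows, against 0.876 across the other windows. NPC and ESC levels had an r of 0.349 across ESC-poor windows (Spearman rho 0.297) and of 0.743 across the other windows (rho 0.756). These correlations are descriptions: the windows share libraries, depth and base composition, and the range of ESC levels was restricted by the selection.

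Input reads were sparser in ESC-poor windows, which held 1778 NPC input reads per Mb and 1285 ESC input reads per Mb, against 2951 and 2287 in the other windows. The number of NPC input reads per ESC input read in ESC-poor windows was 1.07 times that elsewhere. Windows of like input coverage were compared, an addition made after the data were seen. The NPC level in ESC-poor windows was then between 0.842 and 0.934 of that in the other windows, against 0.721 without such classes. For example, among windows with 3000 to 3499 summed input reads, the NPC level was 0.202 in 195 ESC-poor windows and 0.216 in 125 other windows, a ratio of 0.934 (0.923 to 0.946). At 4500 or more input reads 5 windows were ESC-poor and 1282 were not, so that no value was formed. The part of base composition or mappability in the NPC level was not tested.

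The 5 windows with the lowest ESC level began with chr6:130000001-131000000. It held 119 NPC 5hmC reads over 923 input reads, a level of 0.129 (0.106 to 0.156), and 167 ESC 5hmC reads over 777, a level of 0.215 (0.181 to 0.254). This window was the lowest in both cell types. Windows on chromosome 7 from 68000001, chromosome 4 from 67000001, chromosome 12 from 116000001 and chromosome 7 from 32000001 followed, with NPC levels of 0.164, 0.179, 0.165 and 0.142 and ESC levels of 0.235, 0.257, 0.266 and 0.272. Besides the windows on chromosome 6 and on chromosome 7 from 32000001, the lowest NPC levels were found on chromosome 7 from 93000001 (0.135), chromosome 17 from 39000001 (0.143) and chromosome 4 from 143000001 (0.146). The last of these had an ESC level of 0.479 and with it the lowest NPC/ESC ratio of all ESC-poor windows, 0.305 (0.246 to 0.376). Other low ratios were 0.329 on chromosome 17 from 18000001, 0.337 on chromosome 8 from 5000001, 0.345 on chromosome 1 from 31000001 and 0.349 on chromosome 11 from 10000001. After the highest ratio, 0.736 in a window of chromosome 3 taken up with the tiles, high ratios were 0.720 on chromosome 8 from 6000001, 0.717 on chromosome 1 from 126000001, 0.710 on chromosome 14 from 39000001 and 0.704 on chromosome 6 from 45000001. The windows on chromosome 8 with a low and a high ratio were neighbours: from 5000001 the NPC level was 0.146 and the ESC level 0.433, and from 6000001 the levels were 0.211 and 0.294.

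The ESC-poor windows gathered in runs. They formed 222 runs of adjacent windows, of which 105 were single windows, 53 were pairs and 64 held at least 3 windows. Those 64 runs, called deserts below, comprised 285 windows (57.5%), and 25 runs of at least 5 windows comprised 154 (31.0%). A measured neighbour of an ESC-poor window was itself ESC-poor in 548 of 979 cases (56.0%), against 431 of 3701 neighbours of other windows (11.6%). Among the ends of runs, 431 met a measured window above the limit, 9 an unmeasured window and 4 the end of a chromosome. The number of windows in deserts moved with the limit, to 88 at a limit of 0.40 and to 396 at 0.60.

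The longest deserts measured 11 Mb. On chromosome 1 from 109000001 to 120000000 the NPC level was 0.183 (0.176 to 0.189) and the ESC level 0.365 (0.353 to 0.377), with single windows from 0.161 to 0.214 in NPC. The windows before and after it had NPC levels of 0.225 and 0.284 and ESC levels of 0.879 and 1.91. On chromosome 14 from 88000001 to 99000000 the NPC level was 0.214 (0.207 to 0.221) and the ESC level 0.409 (0.396 to 0.421). The deserts differed beyond counting error in both cell types, while their NPC/ESC ratios of 0.5005 (0.476 to 0.526) and 0.523 (0.5001 to 0.548) overlapped.

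A desert of 9 Mb at chr5:55000001-64000000 had an NPC level of 0.207 (0.199 to 0.215), and one of 8 Mb at chr14:107000001-115000000 had 0.205 (0.197 to 0.214). Those of 7 Mb lay at chr1:100000001-107000000, at 0.201 (0.193 to 0.210), and at chr3:42000001-49000000, at 0.235 (0.225 to 0.245). Of the 6 deserts of 6 Mb, the 2 with the lowest ESC level are described with these. Among the 8 deserts given here, the one at chr3:42000001-49000000 was the highest in NPC. It contained the window with the highest NPC level, described below. The 6 Mb desert at chr8:100000001-106000000 had an NPC level of 0.213 (0.204 to 0.223) with a ratio of NPC to ESC of 0.603 (0.567 to 0.641). The one at chr4:74000001-80000000 had 0.181 (0.172 to 0.190) and a ratio of 0.481 (0.450 to 0.514). The deserts on chromosome 1 from 100000001 and from 109000001 were separated by 2 windows.

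The NPC level differed little with the length of the run. It was 0.200 (0.198 to 0.202) in single windows, 0.197 (0.195 to 0.199) in pairs, 0.199 (0.197 to 0.201) in runs of 3 to 4 and 0.200 (0.198 to 0.202) in runs of 5 or more. The ESC level was 0.422 in single windows and between 0.387 and 0.390 in the longer classes. Within deserts, the 160 windows without a measured edge had an NPC level of 0.199 (0.197 to 0.200), and the 125 windows at an edge had 0.201 (0.199 to 0.203).

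ESC-poor windows were found on all 19 autosomes. Their share of measured windows was highest on chromosome 14 (30.7%), chromosome 3 (28.7%), chromosome 12 (27.4%) and chromosome 1 (25.5%). It was lowest on chromosome 9 (9.09%), chromosome 19 (10.2%), chromosome 11 (10.9%) and chromosome 13 (11.1%). The longest run was 2 windows on chromosomes 9, 13 and 19. Chromosome 1 contributed 49 windows and chromosome 3 contributed 45, the largest numbers. The NPC level of the ESC-poor windows was lowest on chromosome 17, at 0.182 (0.177 to 0.187), and highest on chromosome 19, at 0.211 (0.202 to 0.220). It lay below that of the other windows of the same chromosome on every autosome, at 0.636 of it on chromosome 17 up to 0.791 on chromosome 16. Along chromosomes, ESC-poor windows were sparser towards the ends. They made up 14.4% of measured windows in the first 10 Mb, 22.0% in between and 13.1% in the last 10 Mb.

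**Figure D2:**
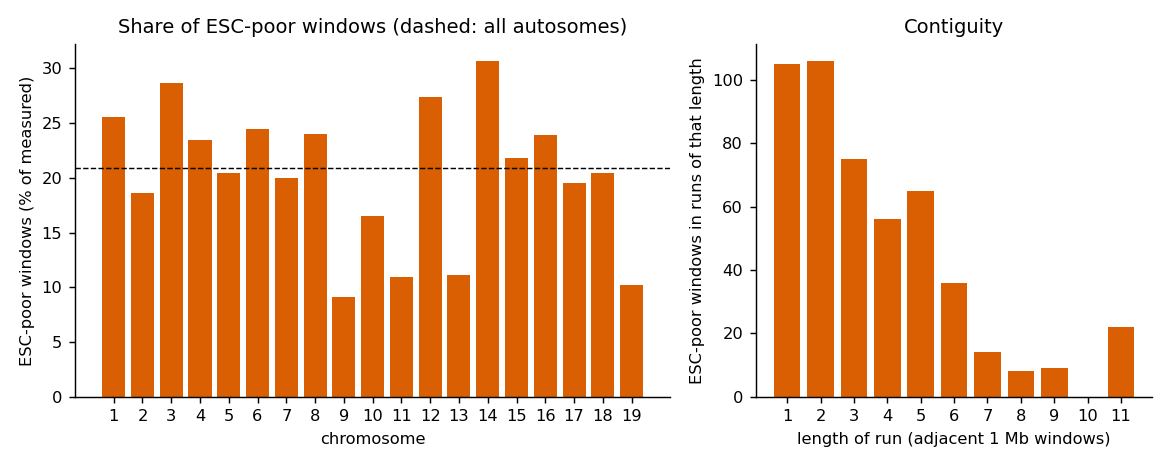
Left, the share of measured 1 Mb windows that were ESC-poor on each autosome, in percent, with the share over all autosomes (20.9%) as a dashed line; right, the number of ESC-poor windows by the length of their run in adjacent windows. Chromosome 14 is highest at 30.7% and chromosome 9 lowest at 9.09%, and 285 of the 496 windows lie in runs of at least 3.

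The edges of deserts were followed in bins of 100 kb at the 125 places where a desert met a measured window above the limit. Some outside windows lay between neighbouring deserts and were counted at both, as between chr7:58000001-63000000 and chr7:64000001-70000000. Outside intervals are therefore too narrow. The NPC level was flat inside, between 0.192 and 0.209 in the 10 bins of the inner 1 Mb. It was 0.217 (0.211 to 0.223) in the first 100 kb outside, 0.225 (0.219 to 0.232) in the bin centred at 250 kb and 0.255 (0.249 to 0.261) in the bin centred at 950 kb. The ESC level was between 0.371 and 0.403 in the 8 innermost bins and 0.455 (0.443 to 0.467) in the last 100 kb inside. Outside it was 0.609 (0.595 to 0.624) in the first 100 kb and reached 1.34 (1.32 to 1.36) in the bin centred at 950 kb. The ESC change at the edge follows in part from how the windows were chosen, for which NPC 5hmC reads were not used. Over whole windows, the NPC level was 0.201 (0.199 to 0.203) inside and 0.240 (0.238 to 0.242) outside. It was higher outside at 98 of 125 edges (78.4%), while among all 2340 pairs of adjacent measured windows NPC were higher in the window with the higher ESC level in 72.1%. The share at the edges was near that background and is not read as particular to deserts.

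**Figure D3:**
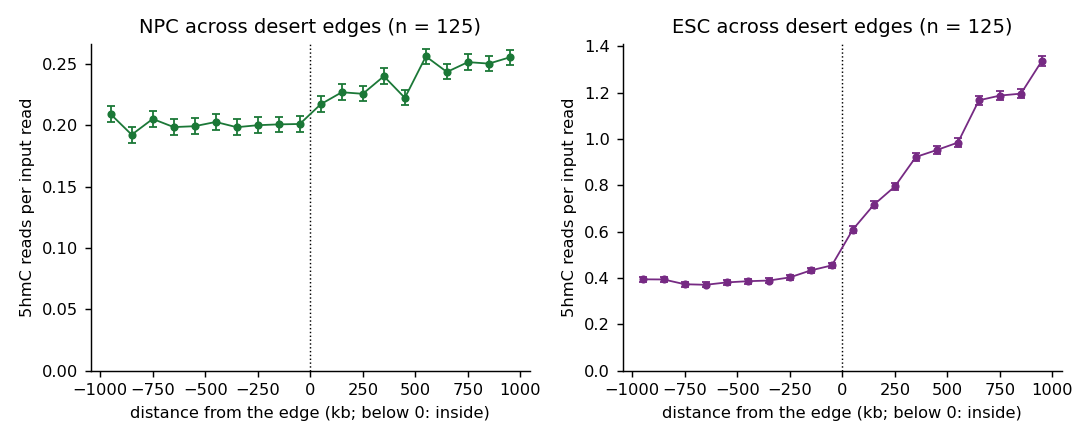
NPC (left) and ESC (right) levels, in 5hmC reads per input read, summed over 125 edges of deserts in bins of 100 kb by distance from the edge in kb, with values below 0 inside the desert; bars are 95% counting intervals and both vertical axes start at 0. The NPC level is flat inside at 0.192 to 0.209 and reaches 0.255 at the far end outside, and the ESC level reaches 1.34 there.

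Within ESC-poor windows the low ESC level was widespread. Of 4382 bins of 100 kb with at least 100 reads in each input, 3613 (82.5%) had themselves an ESC level below 0.50. A single bin exceeded the ESC level of all measured windows, 1.43, where 41.1% of bins in the other windows did. That bin lay at chr3:43700001-43800000, with an NPC level of 1.74 (1.43 to 2.13) and an ESC level of 1.88 (1.49 to 2.37). The lowest bin, at chr8:54300001-54400000, held 23 NPC 5hmC reads over 174 input reads and 9 ESC 5hmC reads over 107. NPC exceeded their level over all measured windows in 10.7% of the bins, against 42.4% of bins in the other windows.

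Tiles of 5 kb were then searched for 5hmC that remained. The call of an enriched tile required at least 10 5hmC reads of that cell type and a 2-fold excess over its own input, once the libraries had been scaled to their reads in kept tiles and 0.5 reads had been added. Over all kept autosomal tiles the share called was 6.08% in NPC, 10.7% in ESC and 2.23% in both. Of 91892 kept tiles in ESC-poor windows, 667 were enriched in NPC (0.726%, 0.672 to 0.783) and 373 in ESC (0.406%, 0.366 to 0.449), and 42 of these in both. These shares depend on the read minimum: at 5 or more reads they were 5.37% in NPC and 0.639% in ESC, and at 20 or more 0.0479% and 0.172%, which turns their order round. After the deeper libraries had been thinned to equal depth they were 0.653% and 0.0501%. Each cell type was scaled to itself, so the 2-fold limit stands for different levels in NPC and ESC. ESC-poor windows had a level of 0.199 in NPC, against 0.266 over all measured windows, and of 0.396 against 1.43 in ESC. An ESC tile thus had to stand out further from its surroundings, and the NPC and ESC shares are not read against each other. In the other windows 7.45% of 360144 tiles were enriched in NPC and 13.4% in ESC. The ESC share is bounded by the rule that chose the windows, whereas the NPC share is not. By summed input reads of a tile, the NPC share was 0.232% (26 tiles) in ESC-poor windows and 0.354% (41 tiles) in the other windows at 5 to 9 reads, and 1.22% and 6.24% at 20 to 29 reads. At 5 to 9, 20 to 29 and 30 to 120 reads the ESC share was 0.677%, 0.278% and 0.687% in ESC-poor windows. In the other windows it was 3.70%, 10.8% and 20.5%. ESC tiles averaged 4.79 ESC input reads in ESC-poor windows, against 6.86 in tiles called in neither cell type. In the other windows these means were 13.2 and 11.5. The part of coverage in the NPC and ESC shares was not tested.

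Many ESC-poor windows had no enriched tile at all. In NPC 172 of 496 windows had none, and in ESC 247 had none, against 35 and 18 of the 1880 other windows. The most in one window were 9 NPC tiles, at chr8:105000001-106000000, and 6 ESC tiles, at chr3:3000001-4000000. Few enriched tiles had an enriched neighbour. In ESC-poor windows, where 0.726% of tiles were called in NPC and 0.406% in ESC, 6.75% of NPC tiles and 3.75% of ESC tiles adjoined another enriched tile of the same window set, against 32.7% and 56.0% in the other windows, where 7.45% and 13.4% were called. Neighbours are met more often where more tiles are called, so nothing is read from this contrast. The longest runs measured 15 kb in NPC, at chr8:68970001-68985000, and 10 kb in ESC.

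The tiles were also measured in reads that had not been used to call them. When tiles were called on plus-strand reads (at least 5 5hmC reads) and measured on minus-strand reads, 854 tiles called in ESC had an ESC level of 1.33 (1.27 to 1.40), which was 0.935 of the level of all kept tiles. Tiles called in the same way in the other windows had 3.18 (3.17 to 3.20). The 854 tiles had an NPC level of 0.337 (0.318 to 0.358), above the 0.192 (0.190 to 0.193) of tiles called in neither cell type. The 1599 tiles called in NPC had an NPC level of 0.466 (0.449 to 0.483), against 0.550 (0.546 to 0.553) in the other windows. Their ESC level was 0.675 (0.649 to 0.701), against 2.36 (2.35 to 2.37) in the other windows, a gap in ESC that the choice of windows sets. Calls on plus-strand reads take in tiles with most reads on that strand, whose minus-strand level is low. Tiles with over 75% of at least 20 5hmC reads on 1 strand were commoner in ESC-poor windows than elsewhere. Their shares were 15.2% against 2.81% in ESC and 61.4% against 20.1% in NPC. The part of this in the gaps between the window sets was not tested.

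**Figure D4:**
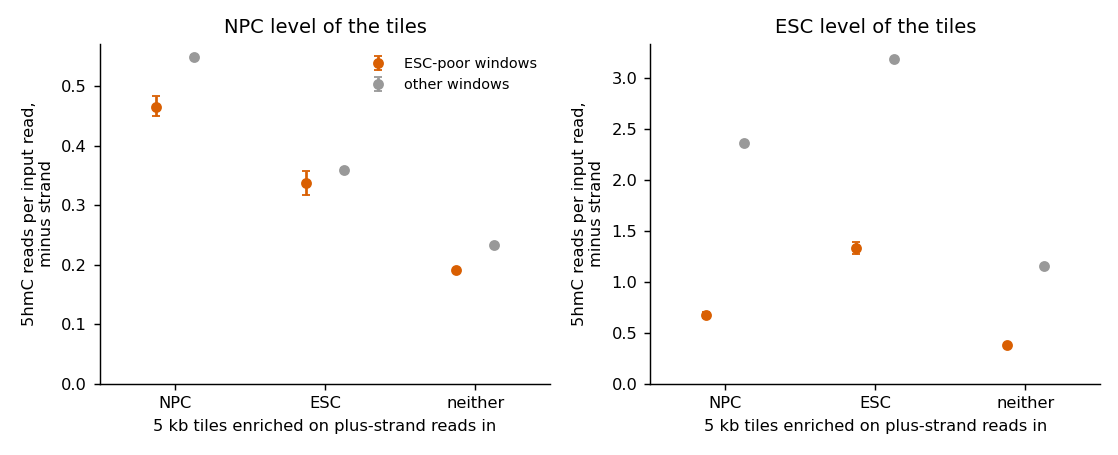
NPC (left) and ESC (right) levels, in minus-strand 5hmC reads per minus-strand input read, of 5 kb tiles called enriched on plus-strand reads in NPC, in ESC or in neither, inside ESC-poor windows (orange) and in the other windows (grey); bars are 95% counting intervals, often smaller than the points. ESC tiles reach an ESC level of 1.33 inside ESC-poor windows and 3.18 elsewhere, and NPC tiles reach an NPC level of 0.466 and 0.550. Called tiles with most reads on the plus strand have low levels on the minus strand shown here.

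In ESC-poor windows 13 tiles had at least 20 NPC 5hmC reads and 10 reads in each input. Of the 8 highest of them, 5 were on chromosome 3, as were 13 of the 42 tiles enriched in both cell types. Chromosome 3 held 8374 of the 91892 kept tiles of ESC-poor windows. The highest of these 8, at chr3:3195001-3200000, held 89 NPC 5hmC reads over 12 input reads and 63 ESC 5hmC reads over 10. NPC were enriched 27.0-fold there and ESC 4.24-fold, with a ratio of NPC to ESC of 1.18 (0.426 to 3.18). On chromosome 3 from 156095001 to 156100000 there were 114 over 18 reads in NPC and 70 over 10 in ESC, giving enrichments of 23.3-fold and 4.70-fold with a ratio of 0.905 (0.352 to 2.21). Both intervals included 1 and also 0.503, the ratio of the ESC-poor windows as a whole. The tiles were picked as the highest in NPC, which raises the ratio.

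Reads in these 2 tiles lay mostly on 1 strand, which NPC and ESC shared. On the plus strand were 83.1% of NPC and 81.0% of ESC 5hmC reads in the tile from 3195001, and 1.75% and 1.43% in the tile from 156095001. The next 3 tiles of the order were enriched 9.15-fold in NPC at chr1:142835001-142840000, 8.59-fold at chr14:16715001-16720000 and 8.23-fold at chr2:53935001-53940000. Plus-strand shares of 5hmC reads were 8% in NPC and 12.5% in ESC in the first of them, and 92.9% and 68.75% in the second. In the tile on chromosome 2 they were 82.8% in NPC and 26.7% in ESC, so that most reads lay on opposite strands. Over all NPC tiles with at least 20 5hmC reads, 27 of 44 in ESC-poor windows (61.4%, 45.5 to 75.6) carried more than 75% of them on a single strand, against 20.1% (18.99 to 21.3) of 4895 in the other windows. For ESC tiles the shares were 24 of 158 (15.2%, 9.98 to 21.8) and 2.81% (2.67 to 2.97) of 46255. Because denatured DNA was precipitated, each strand was captured on its own; what caused the unequal strands was not tested.

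Tiles with reads mostly on 1 strand also lay in the windows with the highest NPC level. The ESC-poor window with the highest NPC level, at chr3:43000001-44000000, had 0.354 in NPC (0.320 to 0.391) and 0.481 in ESC. Adjacent tiles from 43740001 to 43750000 accounted for 242 of 527 NPC 5hmC reads in this window and for 181 of 520 ESC 5hmC reads, over 14 NPC and 11 ESC input reads, with 15.3% and 16.6% of the 5hmC reads on the plus strand. Without them the window had 0.193 in NPC and 0.317 in ESC. The next window, on chromosome 2 from 89000001, had an NPC level of 0.276 (0.248 to 0.307). Its tile from 89225001 to 89230000 held 129 NPC 5hmC reads over 5 input reads and 109 ESC 5hmC reads over 5, with 79.8% on the plus strand in each. Without its 3 enriched tiles the window had 0.188. Windows on chromosome 3 from 3000001 and from 156000001 had 0.268 and 0.257, and 0.163 and 0.193 without their enriched tiles. The fifth, on chromosome 6 from 77000001, had 0.255, and 0.223 without 7 enriched tiles. Removing tiles called in NPC from windows picked as highest in NPC lowers the level by construction. Without enriched tiles, the ESC-poor windows summed to an NPC level of 0.190.

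For ESC, 140 tiles of ESC-poor windows had at least 20 ESC 5hmC reads and 10 reads in each input, a limit that leaves out the tiles of the windows on chromosome 3 from 43000001 and on chromosome 2 from 89000001 described above. There ESC were enriched 7.46-fold and 18.3-fold in the adjacent tiles from 43740001 and 43745001, and 13.95-fold in the tile from 89225001. These values rest on 8, 3 and 5 ESC input reads. Without the added 0.5 reads their intervals were 3.83 to 16.2, 6.73 to 67.1 and 6.23 to 37.4. Among the 140, the 8 highest began with the tiles from 156095001 and 3195001 on chromosome 3. The other 6 were not called in NPC, with NPC enrichments of 0.365-fold to 1.615-fold, and had between 41.7% and 72.7% of their ESC 5hmC reads on the plus strand. On chromosome 10 from 97155001 to 97160000 there were 4 NPC 5hmC reads over 10 input reads and 61 ESC 5hmC reads over 10, an ESC enrichment of 4.10-fold with 50.8% on the plus strand, and an NPC/ESC ratio of 0.0656 (0.0131 to 0.293). On chromosome 17 from 55620001 to 55625000 there was 1 NPC 5hmC read over 15 and there were 60 ESC 5hmC reads over 13, a ratio of 0.0144 (0.000338 to 0.116). The others lay on chromosome 7 from 58880001 and from 69520001, chromosome 12 from 7980001 and chromosome 13 from 26860001, with ESC enrichments of 3.10-fold to 3.17-fold and ratios of 0.0239 to 0.0873. All 6 intervals lay below 0.503, the ratio of the ESC-poor windows as a whole. These tiles were picked as the highest in ESC, which lowers their ratio, and the intervals do not take that into account.

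Summed over tiles called in ESC alone, NPC were slightly above the uncalled tiles. The 331 such tiles had an NPC level of 0.256 (0.237 to 0.276), against 0.190 (0.189 to 0.191) in tiles called in neither, and the 38062 such tiles of the other windows had 0.268 (0.267 to 0.269). The NPC library took no part in calling a tile in ESC, but it did in leaving out tiles called in both. Without any enriched tile, the NPC level was 0.190 in ESC-poor windows and 0.211 in the other windows, 0.900 of the value elsewhere (0.895 to 0.906). With all reads of the windows that value was 0.721. Leaving out tiles called in NPC lowers the NPC level by construction in both sets of windows, but unequally. Tiles called in neither cell type held 94.2% of NPC 5hmC reads of kept tiles in ESC-poor windows and 59.6% in the other windows. Nothing is therefore read from the change from 0.721 to 0.900.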

How the data were processed

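Each deposited file lists read positions on build mm9, extended to 350 bp, and the whole-number count in its last numeric column was taken as the authors' raw read count at a position and strand, since no header or label names it. Bowtie 0.12.7 is named per the submitters' processing notes. How reads with several matches were treated is not given in the sources used here.

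Distinct reads (1 per line) were placed by their midpoint in numpy 2.4.6 and pandas 2.3.3, under Python 3.11.15, with intervals from scipy 1.17.1. Tiles of 5 kb with fewer than 5 summed input reads, or over 5 times the median of 24, were left out, which kept 452036. Intervals are exact (Clopper-Pearson, or the conditional odds ratio), with a log-normal form for counts above 2000. Polymerase chain reaction copies are not independent molecules. The named windows and tiles are the longest runs and the extremes of each measure. The windows, lists and rules were chosen with earlier results of these data known. Window and tile calls were also run on simulated data. No outcome of that run is given here, so nothing is concluded from it about the accuracy of the calls, least of all near their limits. Genes, sequence and base composition had been planned and are not used here, because the annotation at hand is of another build. Alternatives are given at the end.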

Additional observations from a re-analysis of the deposited data

Results flagged for a closer look

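The window at chr3:43000001-44000000 drew attention because it lay on opposite sides of the average in the cell types: its NPC level of 0.354 was above that of all measured windows (0.266), and its ESC level of 0.481 was below (1.43). The ESC side was set by the rule, which placed every ESC-poor window below 0.50. An NPC level at or above that of all measured windows was found in 3 ESC-poor windows. The others lay on chromosome 2 from 89000001 (0.276) and chromosome 3 from 3000001 (0.268). The difference at chr3:43000001-44000000 was not tested, because there were no replicates. Without its 2 enriched tiles the NPC level was 0.193 (0.170 to 0.220).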

How the results depend on the processing

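With the limit at 0.40 there were 273 windows, 88 of them in runs of at least 3, an NPC level of 0.716 of that elsewhere and an NPC/ESC ratio of 0.555, with 0.553% of tiles enriched in NPC and 0.240% in ESC. With the limit at 0.60 the ratio was 0.465 and the tile shares were 0.932% and 0.604%. Windows of 500 kb gave an NPC level of 0.710 of that elsewhere and a ratio of 0.509, summed inputs 0.747 and 0.531, and windows chosen on plus-strand and measured on minus-strand reads a ratio of 0.499. Of alternatives added after seeing the data, classes of summed input reads starting at 1000, 2500, 3000, 3500 and 4000 gave NPC levels of 0.842, 0.930, 0.934, 0.932 and 0.905 of those elsewhere, and leaving out enriched tiles gave 0.900. The share of tiles enriched in NPC was 0.793% with all deposited reads. The NPC and ESC shares were 5.37% and 0.639% at 5 or more reads, 0.0479% and 0.172% at 20 or more, 0.546% and 0.141% at 3-fold, 2.23% and 0.185% in tiles of 10 kb, 0.653% and 0.0501% in libraries thinned to the NPC 5hmC library, and 0.533% and 0.331% with at least 25% of 5hmC reads on each strand. A pseudocount of 5 gave 0.108% in ESC. Which of NPC and ESC had more enriched tiles in ESC-poor windows thus changed with the minimum of reads. Each cell type was scaled to itself for the calls, so this order is not read as more or less 5hmC. The causes were not tested. No paired analysis was possible because each group held 1 library. Tile calls rest on few reads, with a median of 24 summed input reads over all autosomal tiles that had any. Tiles in ESC-poor windows were sparser. Those called in neither cell type averaged 9.49 NPC and 6.86 ESC input reads, against 14.6 and 11.5 in the other windows.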
